A study of Bos taurus with 88 samples.

Results

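The 100 genes described here were those whose transcript level varied least across whole blood of newborn calves. Their levels were expressed as counts per 1000000 reads on genes (CPM), after the reads of the 5 largest genes of each library were taken out of its total. A gene was eligible if its mean over the 88 samples was at least 50 CPM, which held for 4095 of the 24616 genes in the count tables. The 100 eligible genes with the smallest standard deviation (SD) of log2(CPM + 1) over all 88 samples were taken, with 3 identifiers left out. Every one of the 88 samples therefore entered the choice, and the values of these genes in them are a description without a test.

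Blood came from 22 calves, each sampled at 0, 48, 72 and 168 h after birth, and each sample was sequenced as 1 mRNA library. The 8 H calves were Holstein dairy calves, taken from the dam soon after birth and fed colostrum of their own dam by hand. The colostrum feeds were set as a share of body weight. Milk replacer was given in a group pen in the days before the 168 h sample. The 7 CL calves were the progeny of Charolais × Limousin cows and the 7 LF calves the progeny of Limousin × Friesian cows. Both kinds of beef calf had Aberdeen Angus or Charolais sires and suckled the dam, the 0 h sample was taken before colostrum, and all dams had been vaccinated before calving. The dairy and the beef calves came from different farms, so breed, feeding and farm cannot be told apart.

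A gene whose level stays even across animals and ages is used as a reference, against which other transcripts are measured in quantitative PCR or by which libraries are brought to one scale. Such genes often serve functions that every cell needs, and whole blood adds the difficulty that its mix of neutrophils, lymphocytes, monocytes and young red cells shifts in the first days of life. In whole blood, fewer cells of a type and less RNA per cell cannot be told apart. The count tables name genes by Ensembl identifier and 0 of the identifiers were paired with a symbol by the sources used here, so roles are not given and a comparison with the usual reference genes was not made.

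The libraries held 10023822 to 39304404 reads on genes, with a median of 22595526.5. The 5 largest genes of a library took a median of 4.95% of these reads. In the libraries of H calf 6 they took 36.3% at 0 h, 45.6% at 48 h and 48.4% at 72 h, but 7.31% at 168 h, and in the other calves they took 2.88% to 26.4%. H calf 6 stood apart from the other calves in this respect, and some results are also given without its libraries. Where this is not stated, its libraries are included.

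The SD of the 100 genes ran from 0.108 to 0.161 on the log2 scale, with a median of 0.147, against a median of 0.328 for the eligible genes. In linear terms their coefficient of variation had a median of 10.3% and a highest value of 11.3%, against a median of 22.0% for the eligible genes. The highest library exceeded the lowest by 1.44-fold to 2.24-fold, and this ratio was under 2 for 93 of the 100 genes. Among all eligible genes it was under 2 for 264 genes, or 6.45%. The limit of the choice was not a gap. The last 3 genes inside it had SDs of 0.1610, 0.1610 and 0.1613, and the first 3 outside had 0.1615, 0.1616 and 0.1617.

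**Figure D1:**
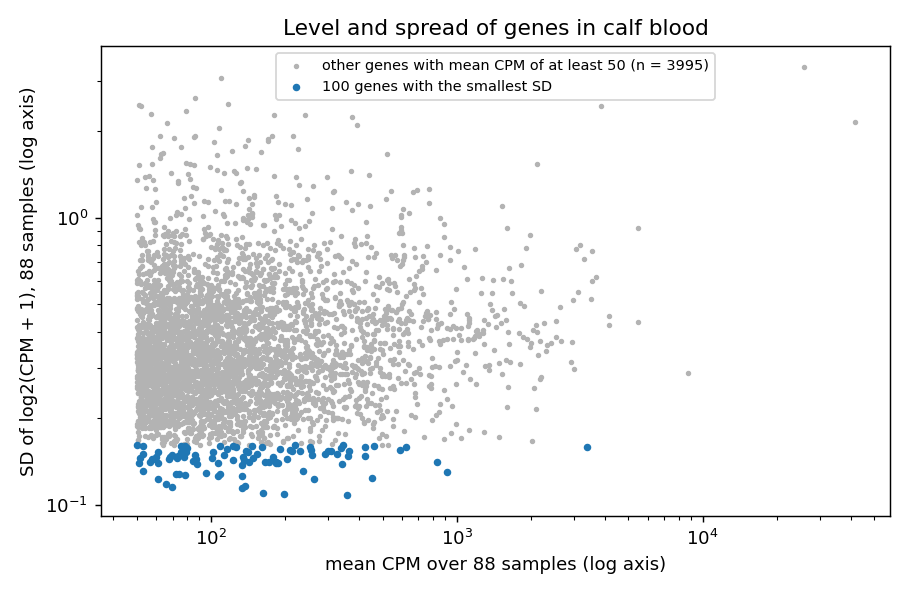
Each point is 1 eligible gene, with its mean CPM over 88 samples on the x axis and its SD of log2(CPM + 1) on the y axis, both on log axes. The 100 genes (blue) form the lower edge, at SDs of 0.108 to 0.161, over the lower part of the range of levels. The highest of them lies at 3394 CPM and the next at 917 CPM, while the eligible genes reach 41525 CPM.

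The 100 genes were not picked out by a high level of expression. Their mean CPM ran from 50.1 to 3394 with a median of 134.1, and 58 of the 100 lay above the median of the eligible genes, which was 107.6. Counting error alone would give these genes a median SD of 0.0281 at the depths of these libraries. It made up a median of 4.17% and at most 11.5% of their variance. The tables count reads by strand as well, and for 3 of the 100 genes both strands together held over 5% more reads than the unstranded count, as happens where genes on opposite strands overlap. This held for 1.00% of the eligible genes.

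The gene with the smallest SD was ENSBTAG00000019685, at a mean of 357 CPM over the 88 samples and an SD of 0.108. Its lowest library held 290 CPM and its highest 419 CPM. In H calves it lay between 290 and 377 CPM (median 336) at 0 h, between 314 and 406 CPM (median 347) at 48 h, between 326 and 408 CPM (median 369) at 72 h, and between 321 and 366 CPM (median 336) at 168 h. The ranges of these 4 ages overlapped. In CL calves the group medians ran from 343 CPM at 72 h to 365 CPM at 48 h, and in LF calves from 351 CPM at 168 h to 381 CPM at 48 h. The group means of this gene differed by at most 0.14 on the log2 scale.

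The gene with the next smallest SD, ENSBTAG00000003077, had a mean of 200 CPM and lay between 171 and 257 CPM in the 88 libraries. Its group means ran from 188 ± 15.9 CPM (SD, n = 7) in LF calves at 48 h to 210 ± 12.9 CPM (SD, n = 8) in H calves at 48 h. The ranges of these groups, 173 to 209 CPM and 191 to 233 CPM, overlapped as well.

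**Figure D2:**
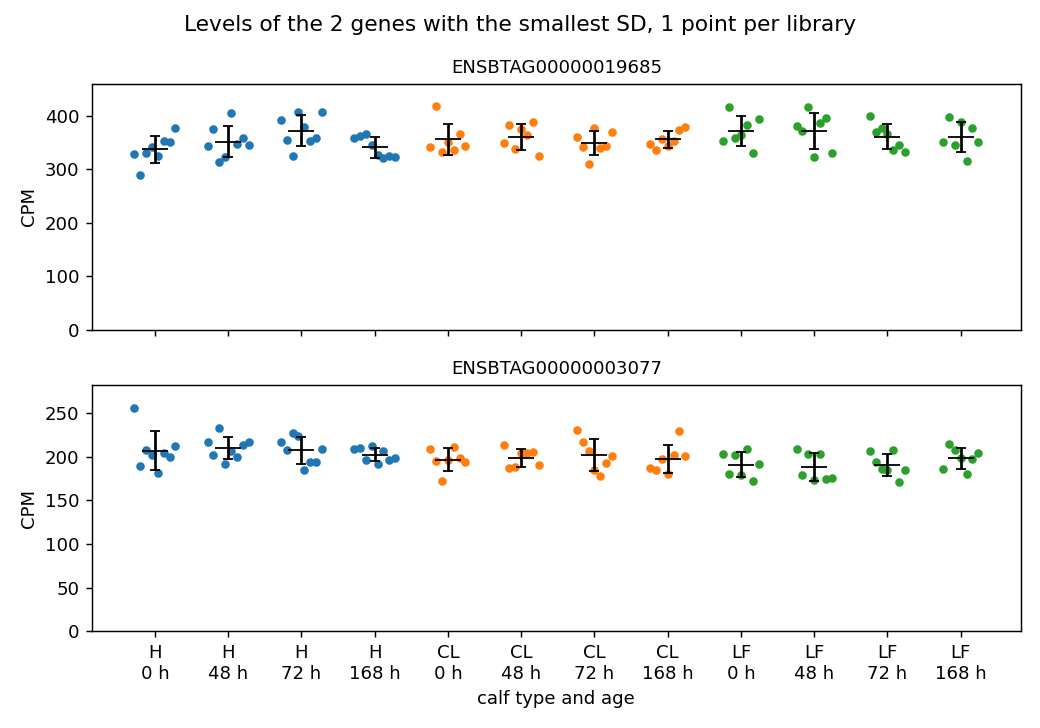
Each point is the CPM of 1 library by calf type and age, for the 2 genes with the smallest SD, and the bars give the group mean ± SD (n = 7 or 8 calves). All 12 groups overlap for both genes, and the highest points are CL calf 2 at 0 h (419 CPM, upper panel) and H calf 1 at 0 h (257 CPM, lower panel).

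The most abundant of the 100 genes was ENSBTAG00000005477. In H calves it ran from 2412 to 3923 CPM (median 3081) at 0 h and from 3313 to 4093 CPM (median 3552) at 168 h. In LF calves its median was 3350 CPM at 0 h and 3758 CPM at 168 h. The libraries at 0 h and at 168 h overlapped in both calf types.

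The widest spread of group means among the 100 genes belonged to ENSBTAG00000009036, which stood at rank 99 of 100 by SD. It was lowest in H calves at 72 h, at 148 to 218 CPM (mean 190 ± 21.8, SD, n = 8), and highest in CL calves at 0 h, at 236 to 294 CPM (mean 261 ± 22.4, SD, n = 7). Under the scaling used here these groups did not overlap, and the lowest value was that of H calf 6. They were the lowest and the highest of 12 groups, for the gene picked for this span. Whether they overlap under another scaling was not examined. A small SD over 88 samples thus left room for groups that stood apart on this scaling. The group means of 49 of the 100 genes spanned more than 1.2-fold. Over the 100 genes the span of the 12 group means had a median of 0.26 on the log2 scale and a highest value of 0.46, against a median of 0.72 for the eligible genes.

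The small remaining variation was split among its sources differently from that of other genes. Choosing by a small SD over all samples passes over genes that differ between groups, so a smaller share between groups is in part set by the choice. Of the sum of squares of the 100 genes a median of 28.9% lay between the 12 groups, 26.3% between calves of a calf type and 44.5% among the libraries beyond that. For the eligible genes these medians were 44.8%, 22.0% and 31.1%. The degrees of freedom behind these shares were 12.6%, 21.8% and 65.5% of the total, which is what unstructured noise would give. The group with the highest mean was H at 0 h for 19 genes, CL at 0 h for 17 and LF at 168 h for 14, and that with the lowest mean was H at 72 h for 25.

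Single libraries seldom departed far from a gene's own mean. Of the 8800 values of the 100 genes 17 lay 1.5-fold or more from it, against 13.2% of the values of the eligible genes. Of these 17 values 12 were in the libraries of H calf 6 at 48 and 72 h and the other 5 in H calf 5 at 72 h. For 83 of the 100 genes, and for 330 of the 4095 eligible genes, no library lay that far away. The summed level of the 100 genes ran from 16722 to 22520 CPM with a coefficient of variation of 4.19%, or 3.09% without H calf 6.

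In H calf 6 the 100 genes lay low together. Their median deviation from their own means was -0.03 at 0 h, -0.20 at 48 h and -0.36 at 72 h on the log2 scale, and 91 of the 100 genes were below their mean at 72 h. The eligible genes deviated further in the same libraries, by medians of -0.26, -0.44 and -0.48. The reads taken by the 5 largest genes moved with these values, and their part in them was not tested. In the libraries of the other calves the median deviation of the 100 genes lay between -0.15 and 0.10. Its size was smaller than that of the eligible genes in 64 of the 88 libraries, with medians of 0.037 and 0.054, and larger in the rest.

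**Figure D3:**
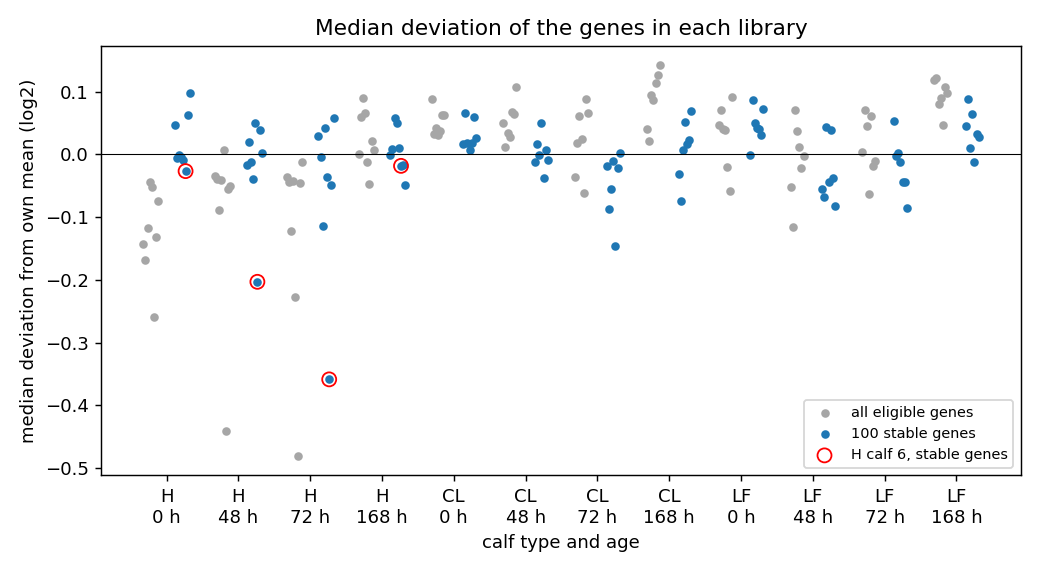
Each library has 1 grey point, the median over the eligible genes of the deviation from their own means, and 1 blue point, the same for the 100 stable genes, on the log2 scale by calf type and age. The blue point lies closer to 0 than the grey one in 64 of the 88 libraries, and H calf 6 (red rings) is the lowest blue point at 48 h (-0.20) and 72 h (-0.36).

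The 100 genes moved together only in part. Over all pairs of them the correlation across the 88 libraries had a median of 0.17, and of 0.10 without H calf 6, against 0.06 and 0.03 for pairs of eligible genes. All these values share the same library totals and are given as a description. The ratio of a gene to each of the other 99 is free of the library total. Its SD, as a mean over the other genes, ran from 0.154 to 0.22 on the log2 scale. The steadiest pair, ENSBTAG00000012928 and ENSBTAG00000020123, had a ratio with an SD of 0.0939 over the 88 libraries, smaller than the SD of any single eligible gene.

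Whether genes chosen for their evenness stay even in animals that did not enter the choice was asked by leaving out each calf type in turn. Choosing from CL and LF calves alone gave 100 genes of which 51 were among those described above. In the 32 libraries of H calves, which had no part in this choice, these genes had a median SD of 0.192 against 0.338 for the eligible genes, and 98 of the 100 lay below that eligible median. Without H calf 6 the medians were 0.157 and 0.313. Choosing without CL calves kept 87 of the genes, and their median SD in the 28 CL libraries was 0.127 against 0.241. Choosing without LF calves kept 81, with a median SD of 0.136 against 0.278 in LF calves. In the calf type left out, 66 of the 100 chosen genes were in the lowest 10% of eligible genes for H (77 without H calf 6), 83 for CL and 71 for LF. The genes chosen under all 3 omissions numbered 40, and all 40 were among the 100. These SDs used the same scaling of the libraries as the choice.

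**Figure D4:**
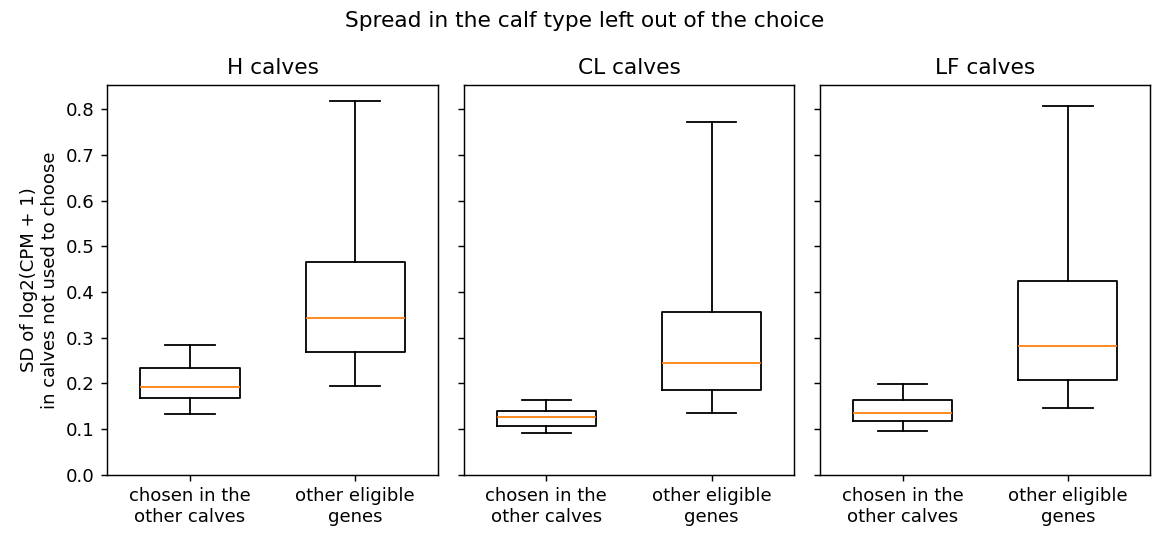
Boxes give the SD of log2(CPM + 1) within the calf type named above each panel, for 100 genes chosen in the other calf types (left) and for the other eligible genes (right), with the median, the quartiles and whiskers from the 5th to the 95th percentile. The medians of the chosen genes are 0.192 in H, 0.127 in CL and 0.136 in LF calves, each below the lower quartile of the other genes.

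An even level in other calves did not fix the level in the calves left out. The genes chosen without H calves lay at a median of 0.10 lower in H calves on the log2 scale, and 75 of the 100 were lower there. All eligible genes lay at a median of 0.14 lower in H calves. Without H calf 6 the chosen genes lay at a median of 0.070 lower, with 68 of the 100 lower, and the eligible genes at 0.11 lower. These shifts hold for the scaling used in the choice, which moves all genes of a library alike, so the counts are not separate differences. Under TMM, a scaling described below, 98 and 96 of the 100 genes described above were higher in H than in CL and LF calves. In CL and LF calves the genes chosen without them shifted by medians of -0.0026 and 0.016. Leaving out an age gave a like picture: 74 of the 100 genes were chosen again without the 0 h samples, 79 without 48 h, 77 without 72 h and 80 without 168 h. The level at the age left out shifted most for 0 h, by a median size of 0.13 against 0.18 for the eligible genes.

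The study compared 48 h with 0 h and 168 h with 72 h within each calf type, and called a gene differentially expressed (DEG) where it changed 1.5-fold or more at a Benjamini-Hochberg adjusted p under 0.05. With edgeR's quasi-likelihood test, DEG made up 6.94% of the genes tested in H calves, 14.9% in CL calves and 11.9% in LF calves at 48 h versus 0 h. At 168 h versus 72 h they made up 9.18% in H, 0.0157% in CL and 14% in LF calves. Among the eligible genes the shares were 6.62%, 11.6% and 11.1% at 48 h, and 7.79%, 0% and 15.8% at 168 h. These fits treat the libraries of the 2 ages as independent of each other, although the same calves were sampled at both ages. With calf as a block, the DEG rose from 2 to 731 in CL calves at 168 h, where they made up 5.45% of the eligible genes, and from 868 to 1397 in H calves at 48 h, where they made up 8.86%. Of the 100 genes 0 were DEG in any of the 6 comparisons. These samples chose the genes, so nothing is read from that count.

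The genes chosen in the other calf types were independent of the calves compared. Of each of these lists of 100 genes, 0 were DEG in the calf type left out, at either pair of ages, by edgeR with and without the block and by DESeq2. In CL calves at 168 h the fit without the block gives nothing to compare, since it called 0% of the eligible genes, whereas with the block it called 5.45% and DESeq2 called 4.25%. In H, CL and LF calves at 48 h the block called 8.86%, 12.1% and 11.4% of the eligible genes and DESeq2 7.57%, 11.7% and 12.3%. At 168 h the block called 7.06% in H and 14.4% in LF calves, and DESeq2 8.33% and 17%. At an unadjusted p under 0.05 without a fold limit, 14 of the 100 passed in H, 41 in CL and 20 in LF calves at 48 h versus 0 h, against 27.7%, 52% and 37.1% of the eligible genes. At 168 h versus 72 h, 27, 9 and 22 passed, against 33.8%, 28.4% and 49.3%.

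Small differences, at an adjusted p under 0.05 at any fold, were found among these lists in numbers that depended on the fit. Fits with libraries scaled to the 100 genes or made on all 88 samples were not independent of the choice. In CL calves at 48 h versus 0 h, edgeR's quasi-likelihood test of the 2 groups without the block passed 28 of the 100 genes chosen without CL calves. It passed 41.6% of the eligible genes. The other fits passed from 15, against 36.6% of the eligible genes, to 31, against 44.4%. In H calves at 48 h the test without the block passed 3, against 12%. The other fits passed from 0, against 9.45% without a filter on low counts and 12.1% when scaled to the 100 genes, to 14, against 19.4%. That 14 came from the fit of all 88 samples, and DESeq2 passed 5, against 16.3%. In LF calves at 48 h the test without the block passed 2, against 22.1%. The other fits passed from 1, against 17.8%, to 16, against 28.4%. That 16 came from the fit of all 88 samples, and DESeq2 passed 10, against 27.7%. At 168 h versus 72 h in H calves the test without the block passed 5, against 17.9%, and with the block 0, against 12.6%. DESeq2 passed 15, against 23%, and 1 fit of all 88 samples 29, against 31.5%. In CL calves the test without the block passed 0, against 0%, and with the block 2 of 100, against 17.4%. In LF calves the test without the block passed 13, against 34.5%, and with the block 5, against 29.2%, while DESeq2 passed 20, against 39.6%. The largest change among these lists was 0.59 in size on the log2 scale, in H calves at 168 h.

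Among the 100 genes themselves, the largest rise was that of ENSBTAG00000016764 in LF calves at 48 h. It lay between 410 and 463 CPM (median 417) at 0 h and between 442 and 558 CPM (median 507) at 48 h. The ranges overlapped, but the level was higher at 48 h in 7 of 7 calves, and the log2 fold change was 0.28 (SE 0.095). The largest fall was that of ENSBTAG00000005039 in H calves at 168 h. It lay between 100.9 and 146 CPM (median 123.6) at 72 h and between 96.1 and 110.8 CPM (median 103.8) at 168 h, and was lower at 168 h in 8 of 8 calves. In the fit, which scaled libraries by the trimmed mean of M values (TMM), it fell by 0.45 on the log2 scale (SE 0.067). The fall in CPM is smaller than this fold change, since the scaling differs. The gene with the smallest SD, ENSBTAG00000019685, had a log2 fold change of -0.33 (SE 0.079) in the same comparison.

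Which genes were even depended on how the libraries were scaled. TMM and the size factors of DESeq2 bring libraries to one scale by the middle of the distribution of fold changes over many genes. With CPM on TMM-scaled totals 14 of the 100 genes were chosen again, with DESeq2 size factors 11, and with CPM on all gene reads 27. The genes chosen under TMM and under DESeq2 size factors shared 83 of 100. No gene, 0, was chosen under all 4 scalings, and 8 were chosen under the scaling used here, TMM and DESeq2 size factors alike. The gene ranked 1 under TMM, ENSBTAG00000016956, was one of these 8 and ranked 22 under the scaling used here. ENSBTAG00000019685 ranked at 172 under TMM, and ENSBTAG00000016764 ranked at 50.

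Under the other scalings most of the 100 genes stayed less variable than the median gene. Over the 94 of them that reached the minimum level under TMM their median SD was 0.171, against 0.314 for all genes eligible there, and 55 were in the lowest 10%. Under DESeq2 size factors the median was 0.181 against 0.311, with 47 in the lowest 10%. Under CPM on all gene reads it was 0.243 against 0.397 over the 94 that were eligible, with 89 in the lowest 10%.

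The level of the 100 genes in one calf type relative to another also depended on the scaling. A scaling moves every gene of a library by the same amount, so the following counts describe 1 offset between libraries, seen in 100 genes, and not 100 separate differences. Under the scaling that chose them, 45 of the 100 genes were higher in H than in CL calves, with a median difference of -0.01 on the log2 scale, and without H calf 6 the count was 51. Under TMM 98 were higher in H than in CL calves, with a median of 0.18, and 96 were higher in H than in LF calves, with a median of 0.13. Without H calf 6 these counts were 99 and 96. Under CPM on all gene reads 10 were higher in H than in CL calves, with a median of -0.11, and without H calf 6 the count was 41 and the median -0.03.

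On the TMM scale the log2 fold changes of the 100 genes lay mostly below 0. Their median was -0.18 in H calves at 168 h versus 72 h, with 93 of the 100 below 0, and -0.17 with 91 below 0 without H calf 6. Of the 4095 eligible genes 2458 were below 0 in that comparison with H calf 6 included. The median of the 100 genes was -0.10 in LF calves at 168 h and -0.05 in CL calves at 168 h. At 48 h versus 0 h it was -0.10 in H, -0.08 in CL and -0.01 in LF calves. Of the 100 genes 17 in H, 0 in CL and 7 in LF calves at 168 h, and 2, 23 and 0 at 48 h, had an adjusted p under 0.05 by edgeR's quasi-likelihood test. Among the eligible genes the shares were 17.9%, 0% and 34.5% at 168 h, and 12%, 41.6% and 22.1% at 48 h. The median log2 fold change of all genes tested was -0.04, 0.04 and 0.01 in the H, LF and CL comparisons at 168 h, and between -0.02 and 0.00 at 48 h. That of the eligible genes was -0.08, -0.05 and -0.02 in H, LF and CL calves at 168 h. At 48 h it was -0.02, 0.01 and -0.03. These samples chose the genes, and the medians are a description of the offset between the scalings.

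Scaling each library to the geometric mean of the 100 genes, a setting added after the data were seen, adds that offset to every gene and so shifts the split of the DEG by construction. In H calves at 168 h versus 72 h, TMM gave 422 DEG higher and 729 lower, and scaling to the 100 genes gave 770 higher and 444 lower. The share of DEG that were higher thus moved from 36.7% to 63.4%, while the median of all genes tested moved from -0.04 to 0.11. In CL calves at 48 h versus 0 h the share moved from 47.2% to 57.2%. In the other comparisons most DEG lay on the same side under both scalings, with shares of 57.1% and 69% in H and 62% and 65.5% in LF calves at 48 h, and of 23.9% and 36.6% in LF calves at 168 h. In CL calves at 168 h versus 72 h, 0 were higher and 2 lower under both. The number of DEG was 1151 and 1214 in H calves at 168 h and 1780 and 1724 in LF calves at 168 h.

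**Figure D5:**
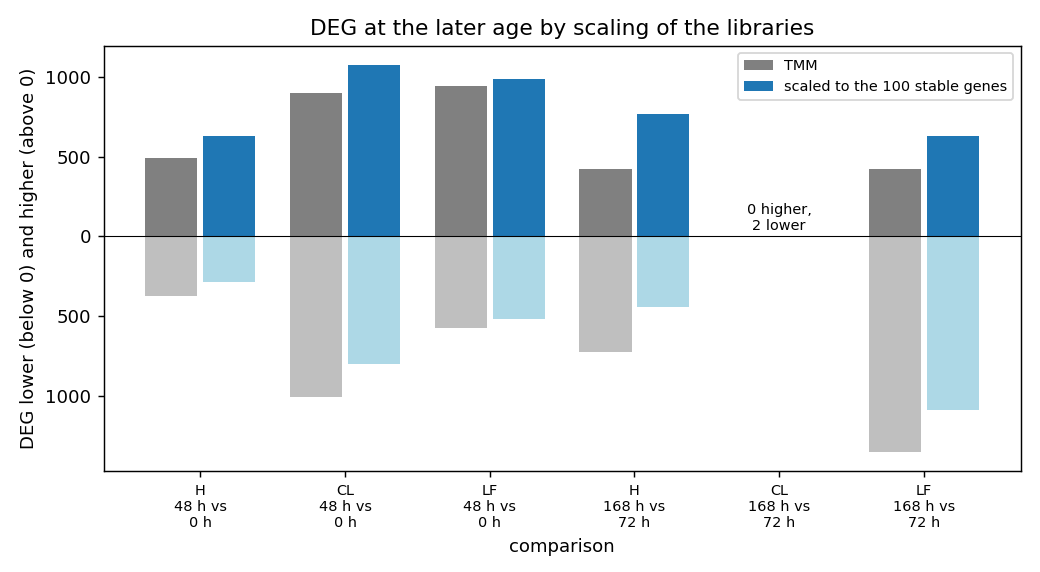
Bars give the number of DEG higher (above 0, dark) and lower (below 0, light) at the later age in each of the 6 comparisons, with libraries scaled by TMM (grey) or to the 100 stable genes (blue). In H calves at 168 h versus 72 h most DEG are lower under TMM (729 of 1151) and higher under the 100 genes (770 of 1214).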

How the data were processed

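Whole blood was collected in Tempus RNA tubes and sequenced as single-end TruSeq mRNA libraries. The authors trimmed reads with cutadapt through TrimGalore, rejected samples with few reads, mapped the rest with STAR against UMD3.1 and its Ensembl annotation, and took STAR's own gene counts. The authors deposited raw counts per gene, without regard to strand and for each strand. Multimapping reads are not counted by STAR on genes, so near-identical copies can be undercounted. The unstranded counts were used, and genes were gene rows only.

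CPM, the SD of log2(CPM + 1) with a pseudocount of 1, and the rule were computed in Python 3.11.15 with pandas 2.3.3. Each comparison was fitted in edgeR 4.0.16 (R 4.3.3) on the 2 groups compared, with TMM, filterByExpr and a robust quasi-likelihood fit, and adjusted over all genes tested. DESeq2 1.42.0, the method of the authors, was an alternative. Scripts were tested on simulated data. Groups and calves came from the labels. The same calves were sampled at each age, so calf is a block by design. Deviations of the same calf correlated at a mean of 0.48, 0.44 and 0.34 in H, CL and LF calves at 48 and 0 h. At 168 and 72 h these means were 0.12, 0.16 and 0.22. The lowest single calves stood at 0.19, -0.05 and 0.01 at 48 and 0 h and at -0.25, -0.25 and -0.15 at 168 and 72 h. Deviations of different calves correlated at means of -0.07 to -0.01. Within an age samples are separate calves, and between ages they are repeat samples of the same calves, which the fits without the block treat as independent.

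The genes, the lists and the tests were chosen with earlier results of these data known. The written rule for named genes took the 10 with the smallest SD, the 5 with the highest mean CPM and 3 on either side of the limit, and left genes without a symbol unnamed. No identifier could be paired with a symbol here, so the few identifiers printed were chosen after their values were seen, for the smallest SD, the highest level, the widest group means, the steadiest ratio, rank 1 under TMM and the largest rise and fall. The 3 identifiers the rule leaves out are not reported here, and lists of reference genes, roles and cell type markers, which need symbols, were not used. The labels also hold an L number (16 values) and a final R in 9 libraries, whose meaning is not stated, and both were alternatives.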

Additional observations from a re-analysis of the deposited data

Results flagged for a closer look

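Within each of the 12 groups the highest and lowest sample were compared with the rest by Dixon's ratio in 84 sets of values, those of the 6 genes described singly and the median deviation of the 100 genes. Chance gives a result past the limit in about 5% of sets, and 7 were found. In 3 of them the sample was H calf 6. Its median deviation of the 100 genes was -0.20 on the log2 scale at 48 h, against -0.04 to 0.05 in the other H calves, and -0.36 at 72 h, against -0.11 to 0.06. ENSBTAG00000016764 stood at 336 CPM in H calf 6 at 72 h, against 445 to 486 CPM in the others. ENSBTAG00000019685 stood at 419 CPM and ENSBTAG00000005039 at 142.8 CPM in CL calf 2 at 0 h, against 333 to 366 CPM and 102.3 to 119.1 CPM in the other CL calves. ENSBTAG00000003077 stood at 257 CPM in H calf 1 at 0 h, against 182 to 213 CPM in the other H calves, and ENSBTAG00000005039 at 94.4 CPM in H calf 3 at 48 h, against 111.8 to 124.4 CPM.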

How the results depend on the processing

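The rule was applied under 20 other settings, of which 13 chose 74 to 92 of the 100 genes again. The others chose 27 with CPM on all gene reads, 14 with TMM, 11 with DESeq2 size factors, 62 with a mean CPM of at least 100 (the 62 eligible there), 54 by the median absolute deviation, 59 by the SD within the 12 groups and 51 without the H calves. Without the 4 libraries of H calf 6, a setting added after the data were seen, 76 were chosen again. The median SD of the 100 genes moved by more than its SD over the 12 groups with CPM on all gene reads (0.243) and DESeq2 size factors (0.181), and was 0.123 to 0.171 in the other 12 settings. The cause of these changes was not tested.

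With calf as a replicate block the DEG rose from 868 to 1397 in H calves at 48 h versus 0 h and from 2 to 731 in CL calves at 168 h versus 72 h, where DESeq2 gave 673 and 1 fit of all 88 samples 196. The other 34 of 38 alternative fits of the 6 comparisons stayed within 1.5-fold. The lists chosen without a calf type had 0 DEG in that calf type in all 44 fits, the block included. Not all of these fits bear on the lists. In CL calves at 168 h the edgeR fits of the 2 groups without the block called 0% of the eligible genes. The fits scaled to the 100 genes were not independent, since these lists share 51, 87 and 81 genes with the 100 for H, CL and LF. Nor were the fits of all 88 samples, which took their spread in part from the calves that chose the lists. In the rest, 4.25% to 17% of the eligible genes were DEG. The comparison with the usual reference genes, planned with its alternatives, was not run, since identifiers were not paired with symbols. Depth limits these genes little, since counting error was at most 11.5% of their variance.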
